A study of Mus musculus with 12 samples.

Results

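The genes described here are 9 histone genes that are used in the testis in place of, or next to, the histones of dividing cells. They are Hist1h1t, which codes for the testis linker histone H1t, Hist1h2ba and Hist1h2aa, which code for the testis core histones TH2B and TH2A, the H2A variant genes H2afx, H2afz and H2afy, the H3.3 genes H3f3a and H3f3b, and H1f0, the linker histone gene of resting and differentiated cells. They were chosen by name, with earlier results of these data known. Each symbol matched 1 Ensembl gene in the GENCODE M1 annotation of mm9, which gave 9 of the 37675 genes listed, and all 9 were among the 16860 genes with enough reads to be tested.

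In the nucleosome, DNA is wrapped around the core histones H2A, H2B, H3 and H4, and a linker histone of the H1 family sits where the DNA enters and leaves. Most histone genes are used only while DNA is replicated, and their mRNAs end in a short hairpin, the histone stem-loop, in place of a poly(A) tail, whereas replacement variants are made outside S phase and can be exchanged into chromatin at any time. Male germ cells swap a large part of their somatic histones for variants at meiosis, and spermatids later evict most histones in favour of transition proteins and then protamines.

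The RNA came from whole testes of untreated male mice of the inbred strain C57BL/6NHsd at postnatal day (PND) 7, 14, 17, 21 and 28, with 2 mice at each age. In the first wave of spermatogenesis the germ cells of a young testis advance together, so that the ages step from spermatogonia through spermatocytes to spermatids. RNA depleted of ribosomal RNA, not selected for poly(A), was sequenced as 50 bp SOLiD 4 reads, and each PND 7 mouse was split over a pair of barcodes, which are combined here. Levels are given as RPKM, reads scaled to exon length and to the counted reads of the library. Changes are edgeR fits of the raw counts with their standard error (SE), called at an adjusted p under 0.05 and at least a 2-fold change. The p-values measure the spread between these mice, and nothing in the sources says whether the mice of an age were litter mates. In whole testis, fewer cells of a type and less RNA per cell cannot be told apart.

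Depth ran from 3994026 to 13559548 counted reads per mouse. Defining markers of spermatogonia, spermatocytes, Sertoli, Leydig, peritubular and blood cells had reads at every age. The summed level of the 8 spermatocyte markers was 173 to 222 RPKM at PND 7 and 1160 to 1841 RPKM at the other ages. That of the 8 spermatid markers was 3.18 to 4.99 RPKM at PND 7, where 4 of them had no read in either mouse, and 8616 to 10590 RPKM at PND 28. The library of PND 14 mouse 1 stood apart, since it held spermatid transcripts that its age mate lacked. Tnp1, which codes for a transition protein, had 158 RPKM in that mouse and 5.17 RPKM in PND 14 mouse 2, and Prm1, a protamine gene, had 133 and 2.46 RPKM. These levels are 4.14% and 5.77% of the PND 28 means, and their part in the values at PND 14 was not tested, so members' called changes that rest on PND 14 are also given without that mouse. A fit that leaves out a mouse keeps a single mouse at its age, whose spread is then assumed to be that of the other ages.

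The 9 genes fall into a pair of classes by whether a histone stem-loop follows their coding sequence in the genome. A match to the histone stem-loop consensus was looked for on the sense strand within 200 bases after the stop codon in mm9, and 62 of 21930 coding genes (0.283%) held one, of which 61 have a histone symbol. It was found in 4 of the 9 genes, Hist1h1t, Hist1h2ba, Hist1h2aa and H2afx, and not in H3f3a, H3f3b, H2afz, H2afy or H1f0, whose gene model has no stop codon and was searched from its end. The hairpins are shown because an mRNA that ends in one has no poly(A) tail and is missed by polyadenylated libraries. The ends of the mRNAs were not measured here. The gene models of Hist1h1t and H2afx run on past the hairpin, to base 23788588 and base 44144154. The stems and loop are in capitals, with 5 bases on either side, in the direction of transcription. The first base of the hairpin lies 30 bases after the stop codon of Hist1h1t, 28 after that of Hist1h2ba, 40 after that of Hist1h2aa and 47 after that of H2afx.
Hist1h1t, chr13:23788394-23788409, plus strand: ccaaaGGCTCTTTTAAGAGCCactta
Hist1h2ba, chr13:24025599-24025614, minus strand: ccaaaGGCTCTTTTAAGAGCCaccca
Hist1h2aa, chr13:24026760-24026775, plus strand: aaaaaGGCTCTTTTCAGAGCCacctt
H2afx, chr9:44143323-44143338, plus strand: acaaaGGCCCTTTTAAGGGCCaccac

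Hist1h2ba and Hist1h2aa stand head to head on chromosome 13, at 24025637 to 24026025 on the minus strand and 24026331 to 24026720 on the plus strand, with 305 bases between the gene models. Their products pair with each other as an H2A and H2B dimer, and the genes share the stretch below as a promoter region. It runs on the plus strand from the TATA box that faces Hist1h2ba to the TATA box that faces Hist1h2aa, and its capitals mark the motifs found on either strand.
Hist1h2ba and Hist1h2aa, chr13:24026114-24026279, plus strand, mm9: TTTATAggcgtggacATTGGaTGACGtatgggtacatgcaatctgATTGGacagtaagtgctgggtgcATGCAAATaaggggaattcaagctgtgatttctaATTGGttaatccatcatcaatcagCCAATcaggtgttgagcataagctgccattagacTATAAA
These 166 bases hold 2 TATA boxes (TATAAA), 4 CCAAT boxes (CCAAT), 1 CRE core (TGACG) and 1 octamer (ATTTGCAT). Among 22375 promoters, taken from 250 bases before to 50 bases after each gene start and searched on both strands, the TATA box was held by 13.4%, the CCAAT box by 37.9%, the CRE core by 23.3% and the octamer by 1.73%. The full CRE (TGACGTCA), which contains the core, was held by 2.32% and is not in this stretch, where no match overlaps another. The 120 bases before the start of Hist1h1t hold 1 CCAAT box and none of the other motifs in these exact letters. The 120 bases before H2afx hold 1 CCAAT box and 1 TATA box, whose exact letters are on the minus strand. Variant forms of a motif were not searched. On the plus strand the stretches hold tatataag (Hist1h1t) and TATAagg (H2afx), so the search does not show that a TATA box is missing or which way it faces. A match is a description of the letters and does not show a bound factor.
Hist1h1t, chr13:23787560-23787679, plus strand, mm9: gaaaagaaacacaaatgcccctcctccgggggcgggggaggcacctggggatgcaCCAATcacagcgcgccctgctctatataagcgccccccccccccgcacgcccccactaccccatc
H2afx, chr9:44142678-44142797, plus strand, mm9: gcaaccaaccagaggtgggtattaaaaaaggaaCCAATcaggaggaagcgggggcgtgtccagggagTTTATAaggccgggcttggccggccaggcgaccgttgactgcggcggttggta

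H3f3a and H3f3b code for the same protein of 136 residues with 0 differing residues, but 95 of the 411 coding bases differ (76.9% identical), so that reads of one gene rarely match the other. The first 90 coding bases are shown with the 20 bases that differ in capitals.
H3f3a: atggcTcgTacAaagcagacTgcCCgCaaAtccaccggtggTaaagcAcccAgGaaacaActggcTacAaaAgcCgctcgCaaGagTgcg
H3f3b: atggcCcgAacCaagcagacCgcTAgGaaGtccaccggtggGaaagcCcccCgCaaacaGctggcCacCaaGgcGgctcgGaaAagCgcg

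The authors counted uniquely placed reads, so a gene with copies elsewhere in the genome can lose reads or receive those of its copies. Every 50-base window of Hist1h1t, H2afy and H1f0 was found once in mm9, as were 97.7% of those of Hist1h2aa, 93.7% of H2afx, 80.1% of H3f3b, 74.6% of H3f3a, 61.8% of Hist1h2ba and 59.4% of H2afz. In a separate search, windows inside matches of at least 90% identity were set aside. Then 10.6% of the windows of Hist1h2ba remained, 54.4% of H2afz, 55.4% of Hist1h2aa, 67.0% of H3f3b, 70.1% of H3f3a and 74.8% of H2afx. An exact copy inside a longer match of lower identity is not counted in this search, so it can miss copies. The coding sequence of Hist1h2ba resembles the H2B genes of dividing cells. No single other H2B gene had more than 2645 reads over the 10 mice, against 57326 for Hist1h2ba. These are uniquely placed reads too, so they cannot show how many reads of the copies were lost or placed on Hist1h2ba. The values of these 6 genes are therefore less certain than those of Hist1h1t, H2afy and H1f0. H3f3a and H2afy also overlap genes on the other strand, and the sources do not say whether strand was used in counting. The overlapping Gm16067 had 14 to 161 reads in a mouse, beside 9 to 158 for H3f3a, and the other overlapping genes had 0.

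**Figure D1:**
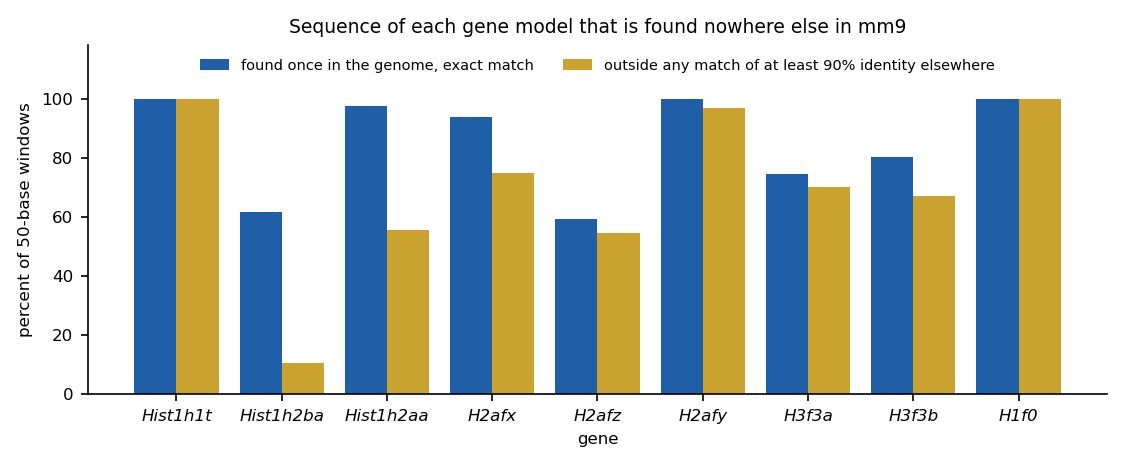
Share of the 50-base windows of each gene model that match no other place in mm9 exactly (blue) or outside any match of at least 90% identity (yellow), in percent. Hist1h1t, H2afy and H1f0 have at least 97.0% on both counts, and Hist1h2ba has 61.8% and 10.6%.

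The main change of the 9 genes came between PND 7 and PND 14, when meiotic cells appear in the testis, and 4 genes rose there. These were Hist1h1t, Hist1h2ba, Hist1h2aa and H2afx, the same 4 of the 9 that hold the stem-loop, and none of the 9 was called as lower. The 5 replication-dependent linker genes Hist1h1a to Hist1h1e hold the stem-loop too. Of these linker genes 0 were called as higher and 1 as lower at PND 14. Hist1h1a and Hist1h1c had log2 changes of 0.78 and 0.77 (SE 0.33 and 0.27, edgeR adjusted p = 0.114 and 0.0603). Those of Hist1h1b, Hist1h1d and Hist1h1e were -2.19, -0.85 and -0.59. Among all tested genes 18.9% were called in this comparison, 13.5% as higher and 5.43% as lower at PND 14. Without PND 14 mouse 1, the same 4 genes were called and H2afy was added. No member was called at PND 14/17, PND 17/21 or PND 21/28, and at PND 28 3 genes stood apart from PND 7, Hist1h1t and Hist1h2ba above and H1f0 below. Over all 5 ages, edgeR's F test called 7 of the 9 genes at an adjusted p under 0.05, all but H3f3b and H2afz, beside 57.5% of all tested genes.

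**Figure D2:**
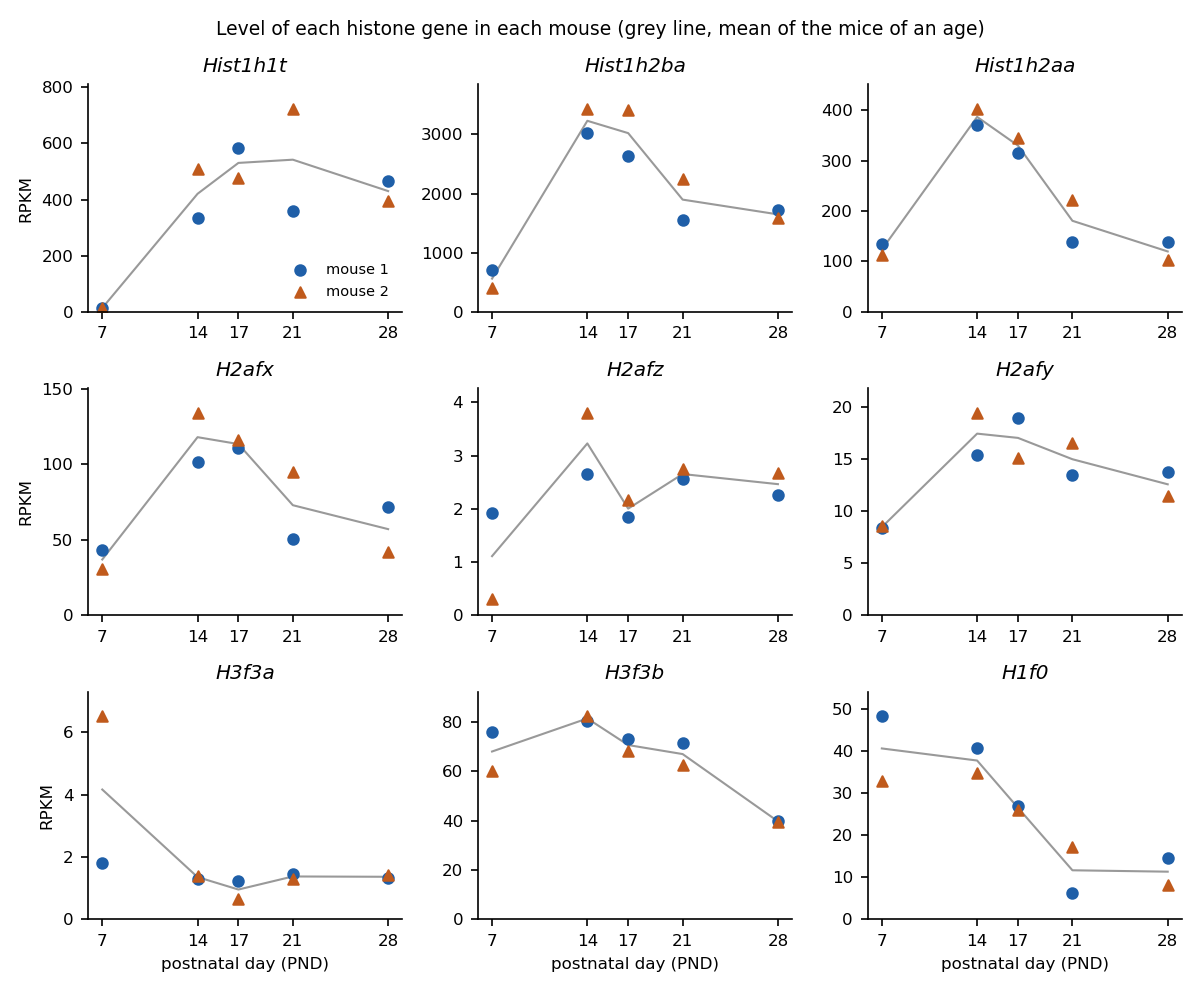
Level of each of the 9 genes in RPKM (vertical axis, from 0, a scale of its own for each gene) at each postnatal day (horizontal axis), with circles for mouse 1 and triangles for mouse 2 of an age and a grey line through the means of 2 mice. Hist1h1t, Hist1h2ba, Hist1h2aa and H2afx are lowest or near their lowest at PND 7 and high at PND 14, and H1f0 is highest at PND 7.

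Hist1h1t codes for H1t, the linker histone that pachytene spermatocytes make and that binds chromatin more loosely than the somatic linkers. The gene is a single exon at chr13:23787680-23788588 on the plus strand. Its level was 13.1 and 12.9 RPKM in the PND 7 mice, 334 and 507 at PND 14, 584 and 477 at PND 17, 361 and 724 at PND 21, and 466 and 394 at PND 28. Every mouse from PND 14 on stood far above both PND 7 mice, and the mice of the 4 later ages overlapped. The fitted rise at PND 7/14 was 30.5-fold (log2 4.93, SE 0.43, edgeR adjusted p = 3.13e-05), and 5.21 on the log2 scale without PND 14 mouse 1. At PND 7/28 it was 41.6-fold (log2 5.38, SE 0.44, edgeR adjusted p = 3.12e-06). In order of normalised CPM, counts scaled to library size by TMM, the ages ran PND 7, 14, 17, 28, 21, and only the first step passed the test. The 79 to 115 reads in each PND 7 mouse show that the transcript was present, at a low level, before PND 14. The 4 barcode libraries of PND 7 gave 11.0 to 14.9 RPKM.

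Hist1h2ba codes for TH2B, the H2B that replaces its somatic counterpart in spermatocytes. It was the most abundant of the 9 genes in every mouse and ranked between 31 and 149 among all genes by RPKM. Its level was 711 and 407 RPKM at PND 7, 3029 and 3434 at PND 14, 2630 and 3415 at PND 17, 1552 and 2242 at PND 21, and 1716 and 1578 at PND 28. All later mice were above both PND 7 mice, and all 4 mice of PND 21 and PND 28 were below all 4 of PND 14 and PND 17 in RPKM. The rise was 5.37-fold at PND 7/14 (log2 2.43, SE 0.35, edgeR adjusted p = 0.000761, log2 2.53 without PND 14 mouse 1) and 3.67-fold at PND 7/28 (log2 1.87, SE 0.34, adjusted p = 0.000753). The later decline did not pass the test, with a log2 change from PND 14 to PND 28 of -0.55 (SE 0.33, edgeR adjusted p = 0.2) and of -0.68 without PND 14 mouse 1 (adjusted p = 0.211). Unlike Hist1h1t, the gene had a high value already at PND 7, with 2642 and 1096 reads in mouse 1 and mouse 2. The other H2B genes together had 3112 and 1806 reads in these mice. Only 10.6% of the windows of Hist1h2ba lie outside near copies, and the part of such copies in its PND 7 reads was not tested.

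Hist1h2aa codes for TH2A, the partner of TH2B, and its level rose and returned. It was 135 and 112 RPKM at PND 7, 371 and 403 at PND 14, 315 and 345 at PND 17, 139 and 223 at PND 21, and 137 and 102 at PND 28. The mice of PND 14 and PND 17 stood above all others, and those of PND 7 and PND 28 overlapped. The rise was 2.91-fold at PND 7/14 (log2 1.54, SE 0.29, edgeR adjusted p = 0.00441, log2 1.62 without PND 14 mouse 1). It was the only member that rose and later fell at the threshold. From PND 14 to PND 28 it fell 2.41-fold (log2 -1.27, SE 0.29, edgeR adjusted p = 0.00544) and from PND 17 to PND 28 2.17-fold (log2 -1.11, SE 0.29, edgeR adjusted p = 0.0121). The first of these falls was -1.36 on the log2 scale without PND 14 mouse 1 (adjusted p = 0.0139). Both lost their call without PND 28 mouse 2 (log2 -1.06 and -0.91, adjusted p = 0.0575 and 0.102), and the second also without PND 17 mouse 2 (log2 -1.04, adjusted p = 0.0783). Among all tested genes 13.4% fell at PND 14/28 and 9.63% at PND 17/28, and 2 members fell in the first (Hist1h2aa and H1f0) and 1 in the second. At PND 28 the log2 difference from PND 7 was 0.28 (SE 0.29, edgeR adjusted p = 0.43).

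Although they face each other across the same promoter region, Hist1h2ba and Hist1h2aa were not at the same level. The ratio of their RPKM was 5.29 and 3.63 in the PND 7 mice, 8.16 and 8.52 at PND 14, 8.34 and 9.91 at PND 17, 11.2 and 10.1 at PND 21, and 12.5 and 15.5 at PND 28. The values of PND 7, of PND 14 and PND 17, of PND 21 and of PND 28 did not overlap. A ratio within a library does not depend on the scaling between libraries, but it does depend on how many reads of each gene could be placed, which was 61.8% of the windows in one and 97.7% in the other, or 10.6% and 55.4% with near copies set aside. This ratio was chosen after the values were seen and was not tested.

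Set against the other coding genes of their families, TH2B took the larger share. The 17 other H2B genes of the histone clusters summed to 519 and 422 RPKM at PND 7 and to 177 and 148 RPKM at PND 28. Hist1h2ba made up 57.8% and 49.1% of the H2B RPKM in the PND 7 mice, 85.6% and 88.8% at PND 14, 88.0% and 90.6% at PND 17, 90.8% and 91.2% at PND 21, and 90.6% and 91.4% at PND 28. Hist1h2aa made up 28.0% and 23.2% of the H2A RPKM at PND 7, beside 18 other H2A genes, and 48.0% to 58.9% in the mice of the later ages. In neither family did the PND 7 shares overlap those of any other age. The shares rest on uniquely placed reads, and the reads that the other family genes lose to their copies were not estimated. They also depend on the exon lengths in RPKM. In reads, Hist1h2aa had 1108 and 1092 in the PND 14 mice, beside 2199 and 2413 for the other H2A genes together. At PND 7/28, where 23.4% of all tested genes fell and 32.2% rose, 9 of 14 tested other H2B genes fell and 2 rose, Hist1h2bp (1.90 and 41.4 RPKM as means) and Hist2h2be (2.37 and 9.76 RPKM), which are named because they go against the rest. Of 16 tested other H2A genes 9 fell and 0 rose. The median log2 change was -1.73 and -1.71, beside 0.10 over all tested genes.

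**Figure D3:**
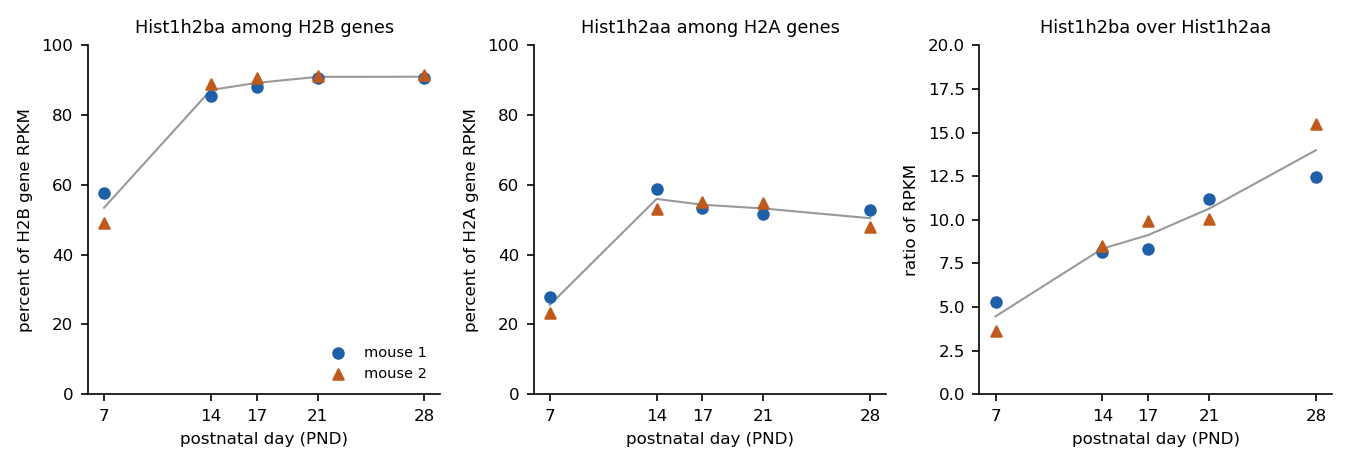
Share of Hist1h2ba in the RPKM of the H2B genes and of Hist1h2aa in that of the H2A genes, in percent, and the ratio of Hist1h2ba to Hist1h2aa RPKM, for each mouse by postnatal day, with a grey line through the means. The H2B share goes from 49.1% and 57.8% at PND 7 to 90.6% and 91.4% at PND 28, the H2A share lies between 48.0% and 58.9% after PND 7, and the ratio is highest in the PND 28 mice.

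H2afx codes for H2A.X, whose phosphorylated form marks DNA breaks and, in pachytene spermatocytes, the silenced X and Y chromosomes of the sex body. Its level was 43.4 and 30.5 RPKM at PND 7, 102 and 134 at PND 14, 111 and 116 at PND 17, 50.8 and 95.0 at PND 21, and 71.9 and 42.2 at PND 28. In RPKM the PND 14 and PND 17 mice were all above the others, and the ranges of PND 7 and PND 28 overlapped. In normalised CPM, PND 21 mouse 2 (138.6) was above PND 14 mouse 1 (116.2) and PND 17 mouse 1 (137.5). The rise at PND 7/14 was 3.04-fold (log2 1.61, SE 0.38, edgeR adjusted p = 0.0135), and 1.81 on the log2 scale without PND 14 mouse 1. It lost its call without PND 14 mouse 2 (log2 1.31, adjusted p = 0.0761) or without PND 7 mouse 2 (log2 1.39, adjusted p = 0.0945). At PND 7/28 the log2 change was 0.98 (SE 0.38, edgeR adjusted p = 0.0412), just under 2-fold.

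H2afz codes for H2A.Z, a variant found around gene starts, and H2afy for macroH2A1, a variant with a large extra domain that is common on the inactive X chromosome. H2afz had few reads, 287 over the 10 mice, and between 0.305 and 3.81 RPKM, with ranks from 9324 to 15045. Its lowest value rested on 4 reads in PND 7 mouse 2, beside 35 in PND 7 mouse 1, and no comparison between ages was called. Its annotated pseudogene copies Gm8203, Gm13007 and Gm13930 had 85, 18 and 3 reads over the 10 mice. H2afy was at 8.36 and 8.59 RPKM at PND 7, 15.4 and 19.5 at PND 14, 19.0 and 15.1 at PND 17, 13.5 and 16.5 at PND 21, and 13.7 and 11.4 at PND 28. Both PND 7 mice were below all others. Its log2 change was 0.96 at PND 7/14 (SE 0.25, edgeR adjusted p = 0.02) and 0.91 at PND 7/28 (SE 0.25, edgeR adjusted p = 0.00824), which pass on p and not on size. Without PND 14 mouse 1 the first was 1.14 (adjusted p = 0.0176). At PND 7/17 it was 1.00 (SE 0.25, edgeR adjusted p = 0.0122) and was called, at the edge of 2-fold, with 0.97 without PND 14 mouse 1 and 0.87 without PND 17 mouse 1 (adjusted p = 0.116).

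The H3.3 genes were far apart in level, and neither was called as higher in any pair of ages. H3.3 is the H3 that is laid down outside replication, on active genes and on the sex chromosomes of spermatocytes. H3f3b was at 76.0 and 60.2 RPKM at PND 7, 80.7 and 82.4 at PND 14, 73.2 and 68.3 at PND 17, 71.4 and 62.7 at PND 21, and 40.0 and 39.5 at PND 28. Both PND 28 mice were the lowest of the 10. The change from PND 14 to PND 28 was -0.61 on the log2 scale (SE 0.21, edgeR adjusted p = 0.032) and -0.67 without PND 14 mouse 1 (adjusted p = 0.0657), and no comparison reached 2-fold. H3f3a was at 1.81 and 6.52 RPKM at PND 7 and between 0.66 and 1.44 RPKM in the 8 other mice. PND 7 mouse 2 stood apart, and both of its barcode libraries did so, with 6.51 and 6.53 RPKM, against 1.80 and 1.82 RPKM in those of PND 7 mouse 1. At PND 7/28 the log2 change of H3f3a was -1.27 (SE 0.56, edgeR adjusted p = 0.0704), -1.90 without PND 7 mouse 1 (adjusted p = 0.003) and -0.10 without PND 7 mouse 2 (adjusted p = 0.868). At PND 7/17 H3f3a was called as lower (log2 -2.06, SE 0.58, edgeR adjusted p = 0.021), a call that was lost without PND 7 mouse 2 (log2 -0.87, adjusted p = 0.212) or without either PND 17 mouse. Its call in the F test was lost as well without PND 7 mouse 2 (adjusted p = 0.4). H3f3a made up 2.32% and 9.78% of the H3.3 RPKM at PND 7, 1.59% and 1.67% at PND 14, 1.67% and 0.957% at PND 17, 1.98% and 2.03% at PND 21, and 3.17% and 3.45% at PND 28. These shares rest on uniquely placed reads, with 74.6% of the windows found once for H3f3a and 80.1% for H3f3b. The reads that either gene lost to its copies were not estimated. H3f3c, a further H3.3 gene of the annotation, had 1 read in all.

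H1f0 fell. Its level was 48.2 and 32.9 RPKM at PND 7, 40.6 and 34.8 at PND 14, 26.9 and 26.0 at PND 17, 6.15 and 17.1 at PND 21, and 14.4 and 8.13 at PND 28. All mice of PND 21 and PND 28 were below all of the earlier ages. The fall at PND 7/28 was 2.83-fold (log2 -1.50, SE 0.47, edgeR adjusted p = 0.0168), and at PND 14/28 2.43-fold (log2 -1.28, SE 0.47, edgeR adjusted p = 0.0462), with 13 to 244 reads in a mouse. It lost its call at PND 7/28 without PND 7 mouse 1 (log2 -1.17, adjusted p = 0.0785) or without PND 28 mouse 2 (log2 -1.15, adjusted p = 0.127). The call at PND 14/28 was lost without PND 14 mouse 1 (log2 -1.21, adjusted p = 0.132), PND 14 mouse 2, either PND 17 mouse or either PND 28 mouse. The annotation lists the gene model as a pseudogene of 534 bases at chr15:78859152-78859689, although H1f0 is a known coding gene. The summed levels of several marker lists were lower at PND 28 than at PND 7 too. Those of 7 Sertoli markers were 555 to 677 RPKM at PND 7 and 119 to 159 at PND 28, those of 8 spermatogonia markers 227 to 261 and 61.7 to 71.4, those of 4 peritubular markers 139 to 177 and 41.1 to 53.2, and those of 5 blood markers 52.7 to 148 and 19.5 to 21.4, whereas 6 Leydig markers went from 148 to 180 RPKM up to 456 to 581. Their part in the fall of H1f0 was not tested.

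**Figure D4:**
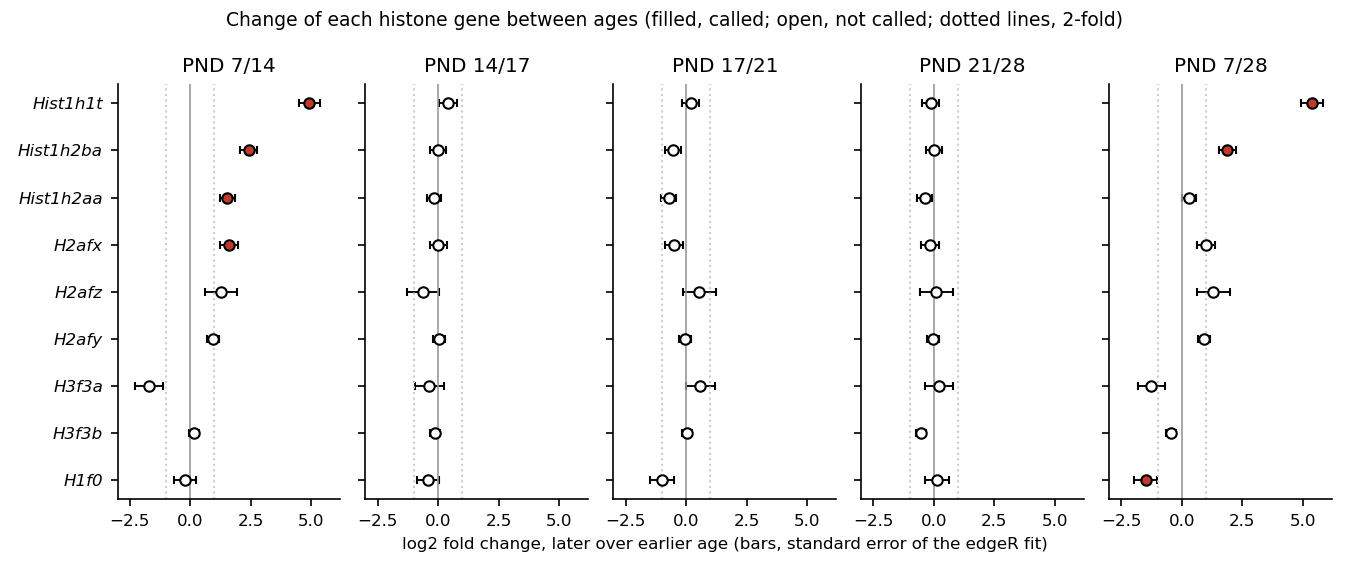
Fitted log2 fold change of each gene, later over earlier age, in the 4 steps between ages and from PND 7 to PND 28, with bars of 1 standard error of the edgeR fit on 10 mice, filled points for calls and dotted lines at 2-fold. In the first step 4 genes are called, in the next 3 steps 0, and over the whole span Hist1h1t and Hist1h2ba are called as higher and H1f0 as lower.

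The comparisons with PND 7 share the PND 7 mice, so their calls are not separate evidence. At PND 7/17, 6 of the 9 genes were called, beside 25.8% of all tested genes, with Hist1h1t, Hist1h2ba, Hist1h2aa, H2afx and H2afy as higher and H3f3a as lower, of which H2afx, H2afy and H3f3a were not called without PND 7 mouse 2. At PND 7/21, 4 were called, beside 42.6%, with Hist1h1t, Hist1h2ba and H2afx as higher and H1f0 as lower, of which H2afx lost its call without PND 7 mouse 2 or PND 21 mouse 2 and H1f0 without PND 7 mouse 1 or PND 21 mouse 1. At PND 7/28, 3 of 9 were called, beside 55.6% of all tested genes, 32.2% as higher and 23.4% as lower. The members' share was thus above the background at PND 7/14 (4 of 9) and below it at PND 7/28. As the 9 genes were chosen with earlier results of these data known, these shares describe the list and are no test of it.

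After PND 14 no step between neighbouring ages was called for any of the 9 genes with all 10 mice in the fit. At PND 14/17, edgeR called 0 of the 9 and 0 (0%) of all tested genes, with 0 members and 769 of all genes at an unadjusted p under 0.05, and DESeq2 called 0 members. At PND 17/21 it called 0 members beside 10.3% of all tested genes, with 1 member, Hist1h2aa, at an unadjusted p under 0.05 and 0 by DESeq2. Without PND 21 mouse 2 the count there was 2, Hist1h2aa and H1f0. At PND 21/28 it called 0 members beside 7.66% of all tested genes, with 1 member, H3f3b, at an unadjusted p under 0.05 and 0 by DESeq2. The members' log2 changes in these 3 steps lay between -0.99 and 0.58.

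The linker histones changed in composition. Beside Hist1h1t and H1f0, the 5 replication-dependent linker genes Hist1h1a to Hist1h1e were measured, and all 5 hold the stem-loop. Hist1h1a, the linker gene of spermatogonia and early spermatocytes, was the most abundant, with 982 and 881 RPKM at PND 7, 1639 and 1783 at PND 14, 1492 and 1630 at PND 17, 450 and 894 at PND 21, and 406 and 406 at PND 28. It was highest at the ages when Hist1h1t had already risen. Hist1h1b, Hist1h1d and Hist1h1e fell at PND 7/28, with log2 changes of -4.46, -2.74 and -2.98 (edgeR adjusted p = 6.11e-06, 3.39e-05 and 1.21e-05). Hist1h1c changed by -0.70 (SE 0.27, edgeR adjusted p = 0.042) and Hist1h1a by -0.87 (SE 0.33, edgeR adjusted p = 0.0393), both under 2-fold. The median of the 5 was -2.74, beside 0.10 over all tested genes.

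Of the summed RPKM of these 7 linker genes, Hist1h1t made up 1.01% and 1.05% in the PND 7 mice, 14.9% and 20.2% at PND 14, 25.9% and 21.0% at PND 17, 41.6% and 42.5% at PND 21, and 50.2% and 46.3% at PND 28. The shares of PND 7, of PND 14, of PND 17, of PND 21 and of PND 28 did not overlap. The level of Hist1h1t itself did not pass the test in any step after PND 14, while the sum of all 7 linker genes was 2234 to 2513 RPKM at PND 14 and PND 17 and 851 to 929 RPKM at PND 28. The 7 genes leave out the further linker gene H1fx and the spermatid linker genes Hils1 and H1fnt. At PND 28 Hils1 had 630 and 605 RPKM and H1fnt 198 and 214 RPKM, beside 466 and 394 RPKM for Hist1h1t. With them counted, the share of Hist1h1t at PND 28 would be lower and the sum higher, so both hold for these 7 genes only. These are shares of mRNA, and protein was not measured.

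**Figure D5:**
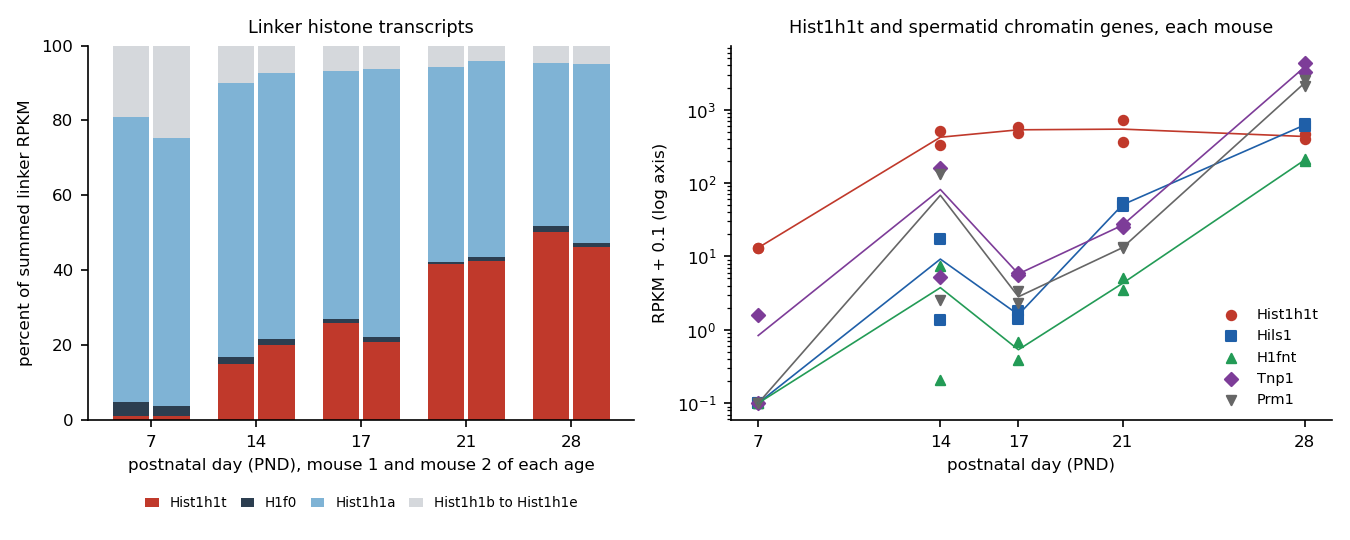
Left, share of Hist1h1t, H1f0, Hist1h1a and the sum of Hist1h1b to Hist1h1e in the RPKM of 7 linker histone genes, in percent, 1 bar for each mouse. These 7 do not include Hils1, H1fnt or H1fx. Right, RPKM plus 0.1 on a log axis for Hist1h1t, the spermatid linker genes Hils1 and H1fnt, and Tnp1 and Prm1, 1 point for each mouse and lines through the means. The Hist1h1t share goes from 1.01% and 1.05% at PND 7 to 50.2% and 46.3% at PND 28, and the other genes are highest at PND 28, with PND 14 mouse 1 above its age mate.

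The spermatid linker genes were highest at PND 28. Hils1 had no reads at PND 7, 16.9 and 1.27 RPKM at PND 14, 1.72 and 1.29 at PND 17, 53.0 and 47.8 at PND 21, and 630 and 605 at PND 28. H1fnt had no reads at PND 7 and 198 and 214 RPKM at PND 28, with at most 7.19 RPKM in any mouse between. At PND 28 the mean of Hils1, 617 RPKM, was next to that of Hist1h1t, 430 RPKM (SD 51.0, n = 2). Both were called as higher already at PND 7/14, where PND 14 mouse 1 held most of the reads (edgeR adjusted p = 0.0074 for Hils1 and 0.0236 for H1fnt). Without that mouse Hils1 was still called (adjusted p = 0.00523) and H1fnt was not (adjusted p = 0.282). All 5 transition protein and protamine genes rose at PND 7/28, and 4 of them had no reads at PND 7.

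Other genes of histone exchange changed in both directions. Of 8 tested further histone variants 4 rose and 2 fell at PND 7/28, with Cenpa, the centromere H3, at log2 -2.47 and H2afy2, the second macroH2A gene, at -2.31 (edgeR adjusted p = 0.000157 and 0.00214), and with Hils1 and H1fnt as the largest rises. The median log2 change was 0.93. Of 25 tested chaperone and exchange genes 7 rose and 6 fell, with a median of 0.54. Znhit1, a subunit of the complex that installs H2A.Z, and Ruvbl2, an ATPase of the same complex, rose by 3.33 and 3.14 on the log2 scale, and Atrx, which deposits H3.3 at heterochromatin, and Srcap fell, with log2 changes of -3.16 and -1.71 (edgeR adjusted p = 1.17e-05, 5.49e-06, 6.44e-06 and 0.0111). Srcap is listed under a pair of gene identifiers that were both called. Over all tested genes the median was 0.10 and 55.6% were called.

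Around H2A.X, 5 of 13 tested genes of its phosphorylation and of the sex body rose and 2 fell at PND 7/28, close to the 32.2% and 23.4% of all tested genes, with a median log2 change of 0.41. Hormad1, needed for silencing of the sex chromosomes, rose by 3.21, and the kinase genes Atm and Prkdc fell, with log2 changes of -1.60 and -1.28 (edgeR adjusted p = 3.63e-06, 8.4e-05 and 0.000777). Of 9 tested genes of histone acetylation and eviction in spermatids 6 rose and 0 fell, beside the same background, with a median of 2.93. Hspa2, a chaperone of the transition proteins, and Brdt, the testis bromodomain protein, rose by 6.04 and 5.47 (edgeR adjusted p = 3.94e-07 and 8.72e-07). All 4 RFX factor genes rose, Rfx2 from a mean of 0.9 to 37.6 RPKM (log2 5.60, edgeR adjusted p = 1.64e-05) and Rfx4 from no reads to 14.3 RPKM. RFX factors are known to bind the promoter of Hist1h1t.

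Over the 10 mice the genes whose log2 normalised CPM followed Hist1h1t most closely, among 10363 tested genes of at least 10 CPM on average, were Mtl5 (r = 0.995), 1700006A11Rik (r = 0.994) and 1700102P08Rik (r = 0.993). Those closest to Hist1h2ba were Sdhc (r = 0.989), Plekha3 (r = 0.989) and Dmrtc1a (r = 0.985), and those closest to Hist1h2aa were Ubxn2a (r = 0.971) and Ncrna00086 (r = 0.968). Hist1h1t and Hist1h2ba correlated with each other at r = 0.917, Hist1h2ba and Hist1h2aa at r = 0.801, and Hist1h1t and Hist1h2aa at r = 0.572. H2afx correlated with Hist1h2ba at r = 0.925 and with Hist1h2aa at r = 0.913. The ages differ in a large share of all genes, so these values describe the shape of the age course and share its libraries.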

How the data were processed

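Counts and RPKM of 12 libraries from 10 mice were used. The authors depleted ribosomal RNA, sequenced 50 bp SOLiD 4 reads, aligned them to mm9 with LifeScope, removed ribosomal, transfer RNA and repeat reads and those with many alignments, and deposited per Ensembl gene the raw count of unique reads on exons. The authors also deposited RPKM, which divides that count by exon length and counted reads. Strand use is not given in the sources used here. Barcodes of a PND 7 mouse were summed (counts) or averaged (RPKM).

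Counts were fitted with edgeR 4.0.16 (R 4.3.3, TMM, filterByExpr, quasi-likelihood test, 10 mice, Benjamini-Hochberg adjustment over 16860 genes), called at an adjusted p under 0.05 and 2-fold. Alternatives were DESeq2 1.42.0, limma 3.58.1 on log2(RPKM + 1) (p of at most 0.01, 2-fold, 10 RPKM difference), other scalings, filters, thresholds, blocks and each mouse left out. Leaving out a mouse in further pairs of ages, and for the spermatid linker genes, was added after the data were seen. The fit was tested on simulated data. Sequences were read from mm9 with GENCODE M1, and near copies searched with blastn 2.17.0+. With 2 mice a group no outlier test was made. Where a gene had 0 reads, as many as 3 could have been missed by counting error alone.

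The 9 genes and all gene lists were chosen with earlier results of these data known. From other lists, the text names the 2 highest and 2 lowest called genes at PND 7/28, all linker genes, and the 3 genes most like Hist1h1t, Hist1h2ba and Hist1h2aa, except that 2 genes named by this rule are not reported here.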

Additional observations from a re-analysis of the deposited data

How the results depend on the processing

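The calls at PND 7/14 kept Hist1h1t, Hist1h2ba and Hist1h2aa under every alternative run. Leaving out each mouse in turn gave 3 to 6 genes at PND 7/14, 0 to 0 at PND 14/17, 0 to 2 at PND 17/21 (2 without PND 21 mouse 2), 0 to 0 at PND 21/28, 3 to 5 at PND 7/28 (5 without PND 7 mouse 1, where H2afx, H2afz and H3f3a entered and H1f0 left) and 4 to 7 in the F test (4 without PND 7 mouse 2, PND 17 mouse 1 or PND 17 mouse 2). At PND 7/28, DESeq2, RLE factors and no fold threshold each gave 5 genes, adding H2afx and H2afy, whose changes lie near 2-fold. The F test count was 4 with limma on RPKM. The share of H3.3 from H3f3a was 1.91% at PND 14, 2.35% at PND 21 and 3.87% at PND 28 with counts in place of RPKM. Scaling by library totals moved the median log2 change of all genes at PND 7/28 by -0.32 and RLE by 0.16, so falls between these ages are larger and rises smaller in RPKM than in the edgeR fit. With mouse number as a replicate block, the counts were 4 at PND 7/14, 0 in each later step, 3 at PND 7/28 and 5 in the F test. The numbers mark no shared origin, and the correlation of deviations between mice of the same number lay between -0.25 and 0.40. No call changed direction under any alternative. Small log2 changes in the 3 later steps changed sign without being called. Low counts limit H2afz and H3f3a, with 287 and 466 reads over 10 mice. The parts of depth and of reads lost to copies in these low counts were not tested.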
